A study of Sus scrofa with 4 samples.

Results

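The AP-1 and EGR transcription factors were examined as a set of 10 genes out of the 25880 genes in a count table of porcine cells: the FOS family (FOS, FOSB, FOSL1, FOSL2), the JUN family (JUN, JUNB, JUND) and the early growth response genes EGR1, EGR2 and EGR3. Members were set by gene name. The rows of 9 members were found by their Ensembl identifier, and that of JUND by its position on the Sscrofa11.1 assembly. Reads were counted for 9 members. JUNB had 0 counts in every library, for a reason given below that makes its level unreadable.

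AP-1 is a dimer of basic leucine zipper (bZIP) proteins. A JUN protein can pair with another JUN protein or with a FOS protein, whereas FOS proteins need a JUN partner to bind DNA stably. The EGR proteins are zinc finger factors that bind GC-rich sites. FOS, FOSB, JUN, JUNB and the EGR genes are known as immediate early genes, because serum, growth factors or stress switch them on within minutes, without new protein synthesis, through ERK and other MAP kinases acting on SRF, its ELK partners and CREB. FOSL1 and FOSL2 usually follow later and last longer, and AP-1 is known in fibroblasts as a regulator of matrix, protease and cytokine genes and as a factor at somatic enhancers that close when cells are reprogrammed.

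RNA was sequenced from 4 cultures derived from the ear skin of 1 post-neonatal pig, named N01F: iPSC clones 1 and 2 (induced pluripotent stem cells, passage 3), an iNSLC culture (induced neural stem cell-like cells, passage 1, no replicate) and the parental fibroblasts (passage 1, no replicate). The iNSLCs were dome-shaped colonies that grew in NSM, a medium first designed for naive-state pluripotent cells, after transfection with the EP-B set of episomal vectors, which carries reprogramming genes that include human KLF4 and OCT4, a MYC family gene, LIN28, SOX2, KLF2, NANOG and a dominant negative mouse p53. The iPSC clones were picked after such cells were moved to ESM, a medium for primed-state cells, to which TGF-β1, activin A and IWP2, an inhibitor of WNT signalling, had been added. The comparisons asked how the factors differed between the end and the start of reprogramming, and how the intermediate cells stood to both. Medium, passage and vector history changed together with cell type, and their parts cannot be told apart. The clones came from the same animal, so p-values measured only the spread between these clones. In bulk samples like these, fewer cells of a type and less RNA per cell also cannot be told apart.

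The libraries held 21640374 (iPSC clone 1), 41296933 (iPSC clone 2), 25784594 (iNSLC) and 62421521 (fibroblast) counts. Levels are CPM, counts relative to library size, scaled by TMM, a method that corrects for a few abundant genes taking up the reads of a library. The level of 3 counts, below which a gene with 0 counts may still have lain, was 0.127, 0.0656, 0.105 and 0.0648 CPM in the same order. The 10 fibroblast markers checked summed to 935 and 932 CPM in the iPSC clones, 52765 CPM in iNSLCs and 138156 CPM in fibroblasts. All 10 had counts in every library, although FAP had only 7 and 2 counts in the iPSC clones. The 6 pluripotency markers found of 8 summed to 879 and 943 CPM in the iPSC clones, 381 CPM in iNSLCs and 0.410 CPM in fibroblasts, where POU5F1 and NANOG had 0 counts. Most of the iNSLC sum came from LIN28A (202 CPM), SOX2 (134 CPM) and POU5F1 (40.5 CPM), whose counterparts the vectors carried and whose vector reads were not separated, while NANOG, also in the vector set, was at 0.209 CPM. The 6 neural stem markers summed to 564 and 632 CPM in the iPSC clones, 637 CPM in iNSLCs and 52.5 CPM in fibroblasts, so their sum did not set iNSLCs apart from iPSCs. The 5 neuron markers did, at 226 and 225 CPM in the iPSC clones, 638 CPM in iNSLCs and 11.7 CPM in fibroblasts. The 4 smooth muscle markers summed to 157 and 166 CPM in the iPSC clones, 55.3 CPM in iNSLCs and 2731 CPM in fibroblasts. Their sum was thus lowest in iNSLCs. KRT1, a marker of differentiated keratinocytes, had 0 counts in both clones and was at 41 CPM in iNSLCs and 0.0432 CPM in fibroblasts. The part of these cell type differences in the results that follow was not tested.

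The JUNB zeros came with a property of the gene models. JUNB (ENSSSCG00000013735, chr2:66214594-66215637, minus strand) is 1 exon of 1044 bases, and all of them lie inside an exon of PRDX2 (chr2:66211144-66216017, plus strand), the gene of a peroxide-reducing enzyme. Of the genes whose exon bases all lay inside opposite-strand exons of another gene with at least 100 counts in every library, 111 of 111 had 0 counts in all 4 libraries. Of the 20466 genes that shared no exon base, 28.4% had 0 counts in all. Reads in bases shared by gene models were thus assigned to neither gene, whatever the strand, and the 0 of JUNB is no measurement of its RNA. Reads from any part of the JUNB transcript that lies outside the JUNB model but inside the PRDX2 exon cannot be told apart from PRDX2 reads. PRDX2 itself was counted at 271 and 279 CPM in the iPSC clones, 247 CPM in iNSLCs and 121 CPM in fibroblasts.

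**Figure D1:**
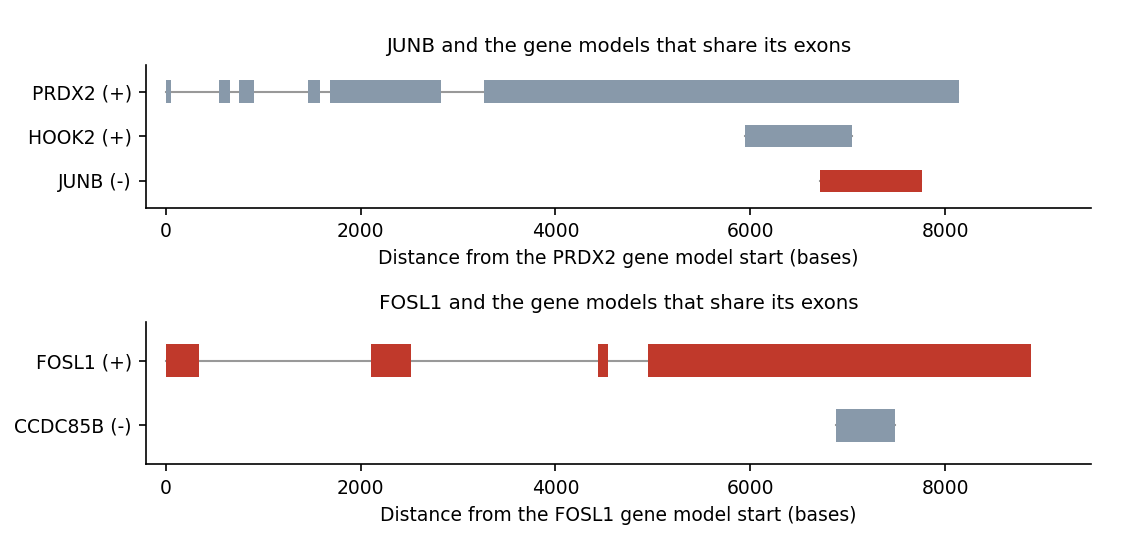
Exon maps of the gene models around JUNB (top) and FOSL1 (bottom), with distance in bases from the start of the PRDX2 or FOSL1 model on the x axis. Boxes are exons, red for AP-1 members and grey for the genes that share bases with them, with the strand in parentheses. JUNB lies wholly inside the last PRDX2 exon, whereas FOSL1 shares 609 of its 4790 exon bases with CCDC85B.

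Among the FOS family, FOS and FOSB were highest in the iPSC clones, while FOSL1 and FOSL2 were highest in fibroblasts. FOS (ENSSSCG00000002383, chr7:98449508-98453576), the founding member of the family, was at 57.2 and 55.4 CPM in iPSC clones 1 and 2, 23.2 CPM in iNSLCs and 10.8 CPM in fibroblasts. The clones differed far less from each other than from either other library. FOS was 5.22-fold higher in iPSCs than in fibroblasts (log2 2.38, SE 0.15, edgeR adjusted p = 0.000495) and 2.43-fold higher than in iNSLCs (log2 1.28, SE 0.14, edgeR adjusted p = 0.00712).

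FOSB (ENSSSCG00000031616, chr6:51838277-51842399), a close relative of FOS best known from neurons, was weak throughout, with 119 and 206 counts in the iPSC clones, 28 counts in iNSLCs and 33 counts in fibroblasts. These correspond to 5.02 and 4.5 CPM in the clones, 0.977 CPM in iNSLCs and 0.713 CPM in fibroblasts. Both clones lay above the other libraries, 6.68-fold over fibroblasts (log2 2.73, SE 0.44, edgeR adjusted p = 0.00663) and 4.87-fold over iNSLCs (log2 2.28, SE 0.44, edgeR adjusted p = 0.0248). The FOSB model, with 978 exon bases, spans 4123 of the 7752 bases of the RefSeq gene, so reads from the ends of the gene were not counted.

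FOSL1 (ENSSSCG00000012967, chr2:6430153-6439029), which encodes FRA-1, a factor of migrating and mesenchymal cells, was at 13.8 and 13.7 CPM in the iPSC clones, 1.88 CPM in iNSLCs and 41.4 CPM in fibroblasts. The iNSLC library was the lowest and fibroblasts the highest, with the clones together in between. In iPSCs FOSL1 was 3.01-fold lower than in fibroblasts (log2 -1.59, SE 0.17, edgeR adjusted p = 0.00199) and 7.31-fold higher than in iNSLCs (log2 2.87, SE 0.22, edgeR adjusted p = 0.00346). The FOSL1 model runs 2856 bases past the end of the RefSeq gene, and its last exon, chr2:6435105-6439029, holds all 609 bases of the opposite-strand gene CCDC85B, whose row had 0 counts in all libraries. Reads from the CCDC85B transcript outside its own model cannot be told apart from FOSL1 reads.

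FOSL2 (ENSSSCG00000032527, chr3:110819947-110842850), which encodes FRA-2, known for its role in skin fibrosis in mice, had the highest level per kilobase of exon of any member in any library, 111 CPM per kilobase in fibroblasts. It was at 45 and 36.4 CPM in the iPSC clones, 96.5 CPM in iNSLCs and 661 CPM in fibroblasts. The level in iPSCs was 16.2-fold lower than in fibroblasts (log2 -4.02, SE 0.17, edgeR adjusted p = 0.000226) and 2.37-fold lower than in iNSLCs (log2 -1.25, SE 0.16, edgeR adjusted p = 0.0105). FOSL2 followed the same order of groups as the summed fibroblast markers, fibroblasts above iNSLCs above iPSCs.

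The group levels of the JUN genes lay at most 2.39-fold apart. JUN (ENSSSCG00000031912, chr6:153685682-153687639), which encodes the most strongly activating JUN protein, was at 36.0 CPM in iPSC clone 1, 21.2 CPM in iPSC clone 2, 31.2 CPM in iNSLCs and 45.7 CPM in fibroblasts. The iNSLC library lay between the clones. With this spread, neither the log2 difference of iPSCs from fibroblasts (-0.68, SE 0.32, edgeR adjusted p = 0.135) nor that from iNSLCs (-0.13, SE 0.33, edgeR adjusted p = 0.787) passed the test. Clone 2 was 1.69-fold lower than clone 1 (95% counting interval 1.54 to 1.86).

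JUND (ENSSSCG00000031657, chr2:59531154-59532196), the broadly expressed JUN protein that often restrains growth, was at 57.1 and 52.2 CPM in the iPSC clones, 37.3 CPM in iNSLCs and 89.0 CPM in fibroblasts. The groups did not overlap, but the distances were short. JUND was 1.63-fold lower in iPSCs than in fibroblasts (log2 -0.70, SE 0.12, edgeR adjusted p = 0.00873), and this call was lost when libraries were scaled by total counts (log2 -0.13, edgeR adjusted p = 0.412). It was 1.47-fold higher in iPSCs than in iNSLCs (log2 0.55, SE 0.13, edgeR adjusted p = 0.0417), a call that was lost with DESeq2 (adjusted p = 0.0870) and without a filter on low counts (edgeR adjusted p = 0.0532).

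**Figure D2:**
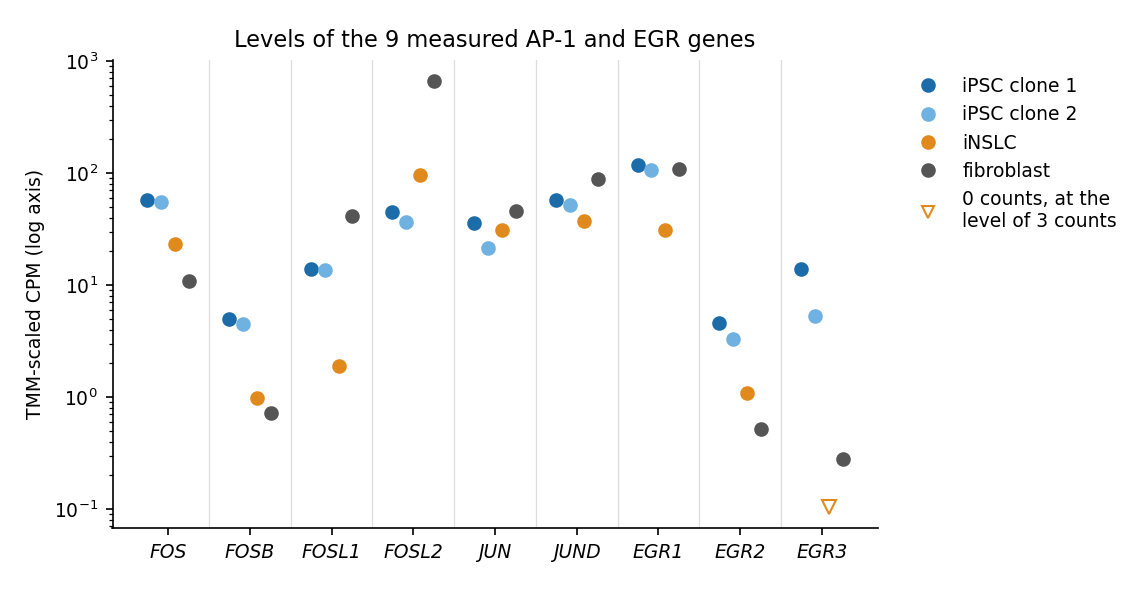
TMM-scaled CPM of the 9 measured AP-1 and EGR genes on a log axis, 1 point per library, with iPSC clones 1 and 2, iNSLCs and fibroblasts from left to right within each gene. The open triangle marks 0 counts, drawn at the level of 3 counts. FOSL2 reached 661 CPM in fibroblasts, FOS and FOSB were highest in the iPSC clones, and FOSL1, JUND, EGR1 and EGR3 were lowest in iNSLCs.

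Of the EGR genes, EGR1 was abundant in iPSCs and fibroblasts but low in iNSLCs, and EGR2 and EGR3 were detected mainly in iPSCs. EGR1 (ENSSSCG00000014336, chr2:140441491-140471827), the prototype of growth factor-induced zinc finger genes, was at 117 and 106 CPM in the iPSC clones, 31.2 CPM in iNSLCs and 109 CPM in fibroblasts. The fibroblast library lay between the clones. EGR1 was 3.58-fold higher in iPSCs than in iNSLCs (log2 1.84, SE 0.14, edgeR adjusted p = 0.00353). The log2 difference between iPSCs and fibroblasts was 0.032 (SE 0.13, edgeR adjusted p = 0.848), which turned into a call of 0.60 with total-count scaling (edgeR adjusted p = 0.0144) and had the opposite sign without a filter on low counts (-0.036, edgeR adjusted p = 0.856) and in a fit of these groups alone (-0.020, edgeR adjusted p = 0.906). The EGR1 model runs 26525 bases beyond the RefSeq gene and shares the 33 bases of its last exon, 1.06% of its length, with ETF1.

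EGR2 (ENSSSCG00000010224, chr14:66284581-66291306), required in mice for hindbrain segmentation and for myelination by Schwann cells, had 108 and 150 counts in the iPSC clones, 31 counts in iNSLCs and 24 counts in fibroblasts. Its levels were 4.56 and 3.28 CPM in the clones, 1.08 CPM in iNSLCs and 0.518 CPM in fibroblasts. Both clones were above the other libraries. The 7.56-fold difference from fibroblasts passed the test (log2 2.91, SE 0.53, edgeR adjusted p = 0.00944), while the 3.62-fold difference from iNSLCs lay just outside the threshold of 0.05 (log2 1.85, SE 0.50, edgeR adjusted p = 0.0543) passed it with total-count scaling (edgeR adjusted p = 0.0494) and in a fit of these groups alone (edgeR adjusted p = 0.0491), and did not pass it with RLE scaling (edgeR adjusted p = 0.0523), without a filter on low counts (edgeR adjusted p = 0.0622) or with DESeq2 (adjusted p = 0.128).

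EGR3 (ENSSSCG00000009630, chr14:6945936-6948381), needed in mice for the formation of muscle spindles, had 332 and 241 counts in the iPSC clones, 0 counts in iNSLCs and 13 counts in fibroblasts. The levels were 14 CPM in clone 1, 5.27 CPM in clone 2, less than 0.105 CPM in iNSLCs and 0.281 CPM in fibroblasts. Clone 2 was 2.66-fold lower than clone 1 (95% counting interval 2.25 to 3.15), yet both clones stood above the other libraries. EGR3 was 34.3-fold higher in iPSCs than in fibroblasts (log2 5.08, SE 0.89, edgeR adjusted p = 0.00846), and the ratio was log2 4.23 without clone 1 and log2 5.64 without clone 2. Against the level of 3 counts in iNSLCs, it was at least 92.1-fold higher in iPSCs (edgeR adjusted p = 0.0132), a bound of log2 6.53 that became log2 5.65 without clone 1 and log2 7.06 without clone 2.

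In iPSCs against fibroblasts, 4 of the 9 members tested rose (FOS, FOSB, EGR2, EGR3), 3 fell (FOSL1, FOSL2, JUND) and 2 did not pass (JUN, EGR1). Calls in the higher direction made up 29.6% of the 15739 genes tested and calls in the lower direction 27.5%, so 7 of 9 called members stood beside a background of 57.1% called in either direction. The median log2 ratio of the members was 0.032, beside 0.13 over all genes tested. Scaling by total counts shifted the median log2 ratio of all genes in this comparison by 0.57 and changed the share of higher genes among all calls to 72.8%, beside 51.9% with TMM. With total counts 5 members were called higher and 2 lower.

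In iPSCs against iNSLCs, 6 members rose (FOS, FOSB, FOSL1, JUND, EGR1, EGR3), 1 fell (FOSL2) and 2 did not pass (JUN, EGR2). The background was 14.1% of genes in the higher and 14.1% in the lower direction. The member median was 1.84 on the log2 scale, beside -0.0011 over all genes.

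Between the single iNSLC and fibroblast libraries no test was run, and members were counted by size, with a ratio of at least 4-fold and at least 10 CPM in the higher library. None of the 9 was higher and 2 were lower by this measure, FOSL1 by 22-fold (95% counting interval 16.8 to 29.4) and FOSL2 by 6.85-fold (6.59 to 7.12). Of all genes tested, 5.89% were higher and 5.69% lower by the same measure. The member median was -1.25 on the log2 scale, beside 0.10 over all genes. EGR1 was 3.50-fold lower (3.26 to 3.77) and JUND 2.39-fold lower (2.23 to 2.55) in iNSLCs than in fibroblasts. FOS was 2.15-fold higher (1.91 to 2.42), and for FOSB the interval of the ratio (0.798 to 2.34) included equal levels. EGR3, at 0 counts, was at least 2.68-fold lower. These intervals cover counting error only.

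For FOSL1, JUND and EGR1 the intermediate cells were thus below both the start and the end of the series: each passed the test as higher in iPSCs than in iNSLCs, and fibroblasts, at 10 CPM or more, exceeded iNSLCs by 2-fold or more. This pattern, defined after the values were seen, held for 3 of 9 members and for 3.49% of all genes tested (550 genes). JUND left it with total-count scaling, where its log2 ratio of iNSLCs to fibroblasts was -0.67, and with DESeq2 or no filter on low counts, where its call against iNSLCs was lost. Between the clones, JUN and EGR3 were at least 1.5-fold apart, as were 20% of all genes tested.

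**Figure D3:**
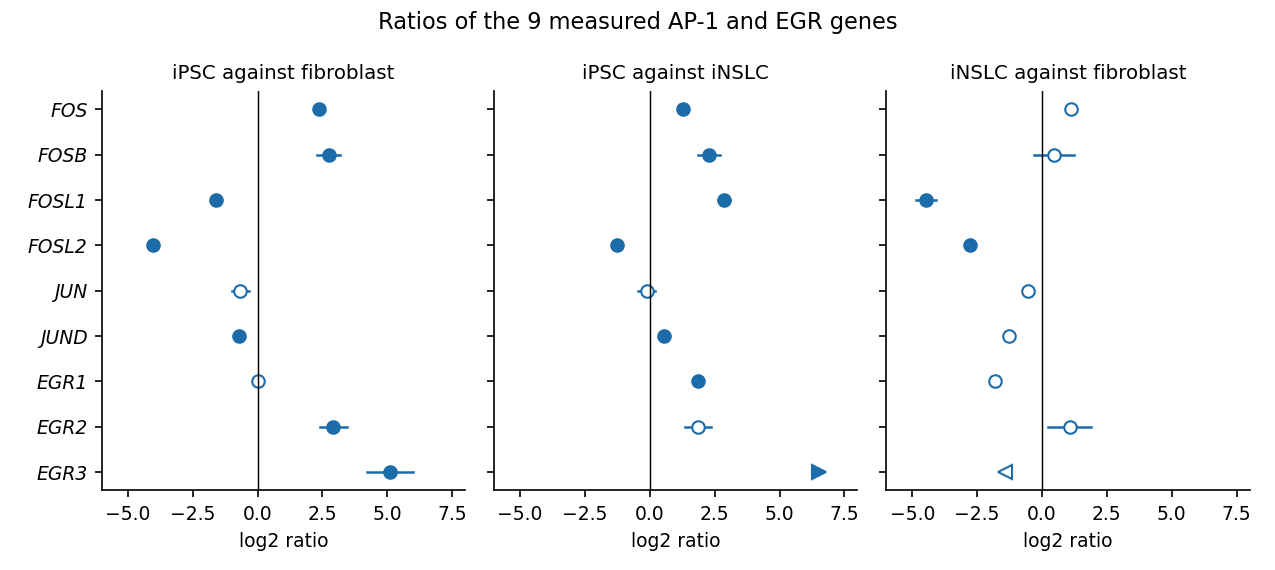
Log2 ratios of the 9 measured members for iPSCs against fibroblasts, iPSCs against iNSLCs and iNSLCs against fibroblasts. Bars are standard errors derived from the edgeR log2 ratio and F statistic in the first 2 panels, and 95% counting intervals in the last. The standard errors are drawn around ratios of scaled CPM. Filled points passed an adjusted p of 0.05 or, in the last panel, the 4-fold measure. Triangles for EGR3 mark bounds set by 3 counts in iNSLCs. FOSL2 lies at -4.02 against fibroblasts and is the only member called lower in iPSCs than in iNSLCs.

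Levels of different genes were compared per kilobase (kb) of exon. The lengths are those of the gene models, which fit the RefSeq genes unevenly. The JUND model spans 1043 bases beside 1856 in RefSeq, and the EGR3 model 2446 beside 5324. The FOS model spans 4069 bases beside 2464, and the JUN model 1958 beside 1211. The FOSL1 model runs 2856 bases past the RefSeq end. The order between genes rests on these lengths. In the iPSC clones the order began with JUND, EGR1, FOS and JUN. FOSL2, FOSB and EGR3 followed, with EGR3 in a varying place, then FOSL1 and, last, EGR2. In the clones FOS (20.8 and 20.2 CPM per kb) and JUN (20.3 and 12 CPM per kb) overlapped and did not differ beyond the spread of the clones. EGR3 (11.5 and 4.33 CPM per kb) likewise overlapped FOSL2 (7.53 and 6.09 CPM per kb) and FOSB (5.14 and 4.6 CPM per kb). In iNSLCs JUND led, followed by JUN, FOSL2, EGR1 and FOS. In fibroblasts FOSL2 led, followed by JUND, EGR1, JUN, FOSL1 and FOS. The clones disagreed with each other only in the place of EGR3, which stood above FOSL2 and FOSB in clone 1 and below them in clone 2.

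The 6 measured FOS and JUN genes summed to 112 and 95.9 CPM per kb in the iPSC clones, 79.4 CPM per kb in iNSLCs and 235 CPM per kb in fibroblasts. JUND made up 49.2% and 52.3% of the sum in the clones, 45.1% in iNSLCs and 36.3% in fibroblasts. FOSL2 made up 6.75% and 6.36% in the clones, 20.3% in iNSLCs and 47.0% in fibroblasts. The FOSL2 and FOS shares ran in opposite directions, FOS holding 18.7% and 21.0% in the clones, 10.6% in iNSLCs and 1.67% in fibroblasts. The order JUND over JUN held in every library, and FOSL1 held 2.58% and 2.99% in the clones, 0.495% in iNSLCs and 3.67% in fibroblasts. Without division by length FOSL1 held 6.45% and 7.49% in the clones, 0.986% in iNSLCs and 4.88% in fibroblasts, so the library with its highest share depends on the scale. Within the FOS family alone, FOS held 57.2% and 59.8% in the clones and 32.5% in iNSLCs. FOSL2 held the largest share in iNSLCs (62.2%) and in fibroblasts (89.3%). JUNB is missing from these sums.

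**Figure D4:**
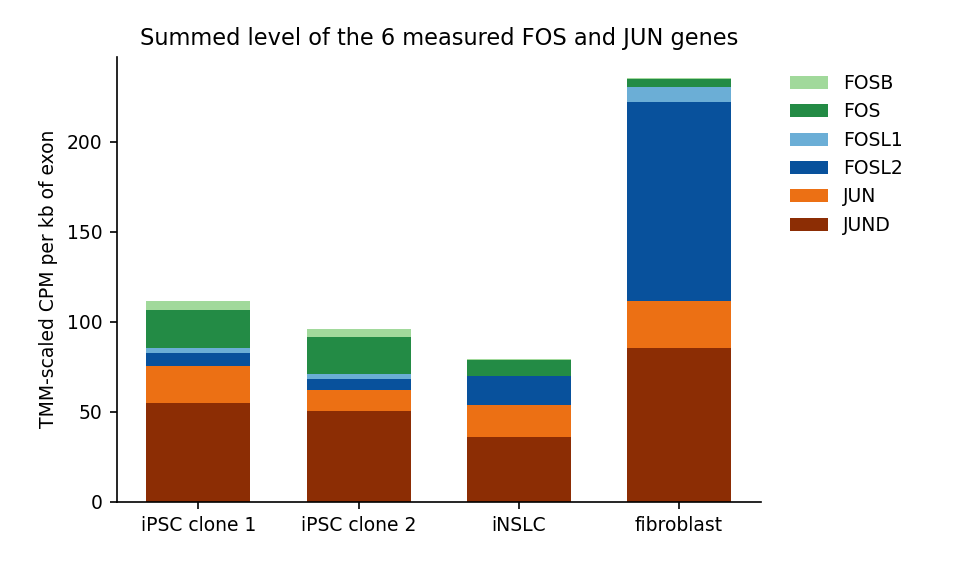
Summed TMM-scaled CPM per kb of exon of the 6 measured FOS and JUN genes in each library, 1 bar per library and 1 colour per gene, without JUNB. The fibroblast bar reaches 235 CPM per kb, of which FOSL2 is 47.0%, while in the iPSC bars FOSL2 is at most 6.75% and FOS at least 18.7%.

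Genes around AP-1 were followed in lists from textbook knowledge, and the background of their counts and medians is that of all genes tested, as given above for each comparison. The 20 upstream regulators, MAP kinases and the factors they act on, were divided. In iPSCs against fibroblasts 4 rose and 7 fell, with a median log2 ratio of -0.17, and the split depended on scaling, with 9 higher and 3 lower when total counts were used. SRF, the factor that binds the FOS and EGR1 promoters, was at 131 and 110 CPM in the iPSC clones, 61.8 CPM in iNSLCs and 70.2 CPM in fibroblasts, and was called higher in iPSCs than in fibroblasts (edgeR adjusted p = 0.0132) and than in iNSLCs (edgeR adjusted p = 0.0177). Its partner ELK3, a ternary complex factor, was at 29.6 and 19.6 CPM in the clones, 13.7 CPM in iNSLCs and 220 CPM in fibroblasts, 8.95-fold lower in iPSCs than in fibroblasts (edgeR adjusted p = 0.000859). ELK4, another SRF partner, was 4.54-fold lower and MAPK3, which encodes ERK1, 3.38-fold lower in iPSCs than in fibroblasts. MAPK7, the ERK5 gene, was 1.97-fold lower. RPS6KA1, a kinase downstream of ERK, was 3.10-fold higher, CREB1 2.72-fold and the JNK gene MAPK8 1.91-fold higher. MAPK3 and MAPK7 share 15.4% and 23.7% of their exon bases with other genes, where reads were not counted.

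In iPSCs against iNSLCs, 5 upstream regulators rose and 2 fell (median 0.14). Those that rose were SRF (1.95-fold), RPS6KA1 (1.95-fold), ELK1 (1.72-fold), MAP2K1 (1.65-fold), which encodes the kinase that activates ERK, and RPS6KA3 (1.5-fold). The JNK gene known from neurons, MAPK10, was at 0.802 and 0.962 CPM in the clones, against 5.27 CPM in iNSLCs, and ELK4 was 1.60-fold lower. Between iNSLCs and fibroblasts, ELK3 was the only 1 of 20 past the 4-fold measure. MAPK10 was 18.8-fold higher in iNSLCs than in fibroblasts (151 beside 13 counts) but lay below the 10 CPM that the measure requires.

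Of the other bZIP genes whose proteins can pair with FOS or JUN proteins or compete for their sites, 15 of 16 were found by name. None rose and 7 fell in iPSCs against fibroblasts, with a median of -0.71. MAF, a large MAF protein, was 6.43-fold lower, ATF5 3.58-fold, ATF7 3.38-fold, and JDP2, a repressor that dimerises with JUN, 3.30-fold lower, followed by NFE2L2 (2.15-fold), the regulator of the oxidative stress response. Against iNSLCs, 8 rose and 4 fell (median 1.2). MAFF, a small MAF protein, was at 18.7 and 15.0 CPM in the iPSC clones, 1.36 CPM in iNSLCs and 20.1 CPM in fibroblasts. BATF3 (5.71-fold), JDP2 (4.10-fold) and ATF5 (3.50-fold) were also higher in iPSCs than in iNSLCs, while BATF2 (6.13-fold), MAF (2.68-fold) and ATF7 (1.72-fold) were among those lower. In iNSLCs against fibroblasts 4 were lower by size, namely MAFF (14.8-fold), JDP2 (13.5-fold), ATF5 (12.5-fold) and ATF4 (4.40-fold), the effector of the integrated stress response.

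Of 30 other immediate early genes, 29 could be tested. In iPSCs against fibroblasts 5 rose and 17 fell, with a median of -1.13. Most calls in this list were in the lower direction. KLF4 was at 27.1 and 13.7 CPM in the iPSC clones, 54.4 CPM in iNSLCs and 310 CPM in fibroblasts. The vectors carried human KLF4, and reads of a vector copy were not separated from those of the pig gene. PTGS2, the inducible prostaglandin synthase, was 9.73-fold lower in iPSCs than in fibroblasts, DUSP1, a MAP kinase phosphatase, 7.70-fold lower, CCN1, a matrix signalling protein, 5.07-fold lower and SGK1, a serum-induced kinase, 4.40-fold lower. The genes that rose were DUSP2 (4.07-fold), IER2 (3.32-fold), CSRNP1 (2.85-fold), NR4A1 (1.62-fold) and EGR4. EGR4, the fourth gene of its family, had 40 and 80 counts in the iPSC clones, 0 counts in iNSLCs and 2 counts in fibroblasts, so EGR2, EGR3 and EGR4 all had their highest level in the clones.

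In iPSCs against iNSLCs, 12 of the 29 rose and 3 fell, with a median of 0.78. EGR4 was at least 16.4-fold higher, NR4A1, a nuclear receptor, 7.93-fold, MYC 4.96-fold, CCN2 4.13-fold, IER3 3.21-fold and KLF6 3.21-fold higher. MYC showed the pattern of FOSL1, with 45.4 and 38.7 CPM in the iPSC clones, 8.48 CPM in iNSLCs and 90.2 CPM in fibroblasts. The genes that were lower in iPSCs than in iNSLCs were KLF2 (2.54-fold), which the vectors also carried, ZFP36L1 (2.12-fold) and BTG2 (1.97-fold). In iNSLCs against fibroblasts none of the 29 was higher by size and 11 were lower, the median being -1.38, with CCN2 (14.9-fold), MYC (10.6-fold), PTGS2 (10.3-fold), IER3 (9.22-fold), KLF6 (8.46-fold) and CCN1 (8.17-fold) at the greatest distance. With total-count scaling 7 were lower.

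The EGR co-repressors NAB1 and NAB2, which bind EGR proteins and restrain them, were both higher in iPSCs than in iNSLCs. NAB2 was at 79.2 and 90.7 CPM in the iPSC clones, 9.0 CPM in iNSLCs and 42.0 CPM in fibroblasts, 9.44-fold over iNSLCs (edgeR adjusted p = 0.00184) and 2.02-fold over fibroblasts (edgeR adjusted p = 0.00479). It had the same low point in iNSLCs as EGR1, although 35.3% of its exon bases are shared with another gene and were not counted. NAB1 was at 124 and 138 CPM in the clones, 73.9 CPM in iNSLCs and 134 CPM in fibroblasts, and passed the test only against iNSLCs (1.78-fold, edgeR adjusted p = 0.0173).

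Among 20 genes known as AP-1 targets in other systems, 18 were tested, HMOX1 being at 0 counts in every library and MMP3 not found by name. The HMOX1 zeros have no explanation here, as its model shares no exon bases, and may be no measurement of its RNA. In iPSCs against fibroblasts 2 rose and 12 fell, with a median log2 ratio of -2.12. CCL2, a monocyte-attracting cytokine, was at 9.5 and 8.39 CPM in the iPSC clones, 22.2 CPM in iNSLCs and 330 CPM in fibroblasts. Both clones were below iNSLCs, which in turn were far below fibroblasts.

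The urokinase gene PLAU was at 31.8 and 15.5 CPM in the clones, 30.8 CPM in iNSLCs and 429 CPM in fibroblasts, and the gelatinase gene MMP9 at 1.01 and 0.240 CPM in the clones, 0.140 CPM in iNSLCs and 24.8 CPM in fibroblasts. IL6 was 31.2-fold and CD44, a hyaluronan receptor, 9.10-fold lower in iPSCs than in fibroblasts. The exceptions that rose were HBEGF (3.52-fold) and TGFB1 (3.51-fold), both growth factor genes.

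In iPSCs against iNSLCs the same list had 11 members higher and 3 lower, with a median of 2.13. CXCL8, a neutrophil-attracting cytokine, was at 29.4 and 42.1 CPM in the iPSC clones, 1.12 CPM in iNSLCs and 159 CPM in fibroblasts. TGFB1 was at 52.5 and 49.9 CPM in the clones, 2.44 CPM in iNSLCs and 14.6 CPM in fibroblasts. The iNSLC library was the lowest for both. IL11 was 26.1-fold and SPP1, the osteopontin gene, 6.05-fold higher in iPSCs than in iNSLCs. MMP13 also rose, at 1.69 and 1.2 CPM in the clones and 0.0698 CPM, or 2 counts, in iNSLCs. CCL2 (2.48-fold), IL6 (2.97-fold) and TIMP1 (2.17-fold) were lower in iPSCs than in iNSLCs. In iNSLCs against fibroblasts none was higher by size and 12 of 18 were lower, with a median of -3.62. Among those far apart were MMP9 (178-fold), CXCL8 (142-fold), CD44 (18.9-fold), PLAUR (15.1-fold) and CCL2 (14.9-fold). The 10 fibroblast markers, at 52765 CPM in iNSLCs and 138156 CPM in fibroblasts, had a median log2 ratio of -1.77 in the same comparison. The sum of the 4 smooth muscle markers was lower in iNSLCs (55.3 CPM) than in fibroblasts (2731 CPM) and in the clones (157 and 166 CPM). This sum, most of it ACTA2 in fibroblasts (2562 CPM), had the order of CXCL8. Of the 4 markers, 3 passed the test as higher in iPSCs than in iNSLCs. DES did not, at 16.1 and 5.18 CPM in the clones and 26.0 CPM in iNSLCs. MYH11 did not share the order in fibroblasts, at 5.70 CPM against 10.5 and 5.86 CPM in the clones. The part of these markers in the values of the target list was not tested.

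**Figure D5:**
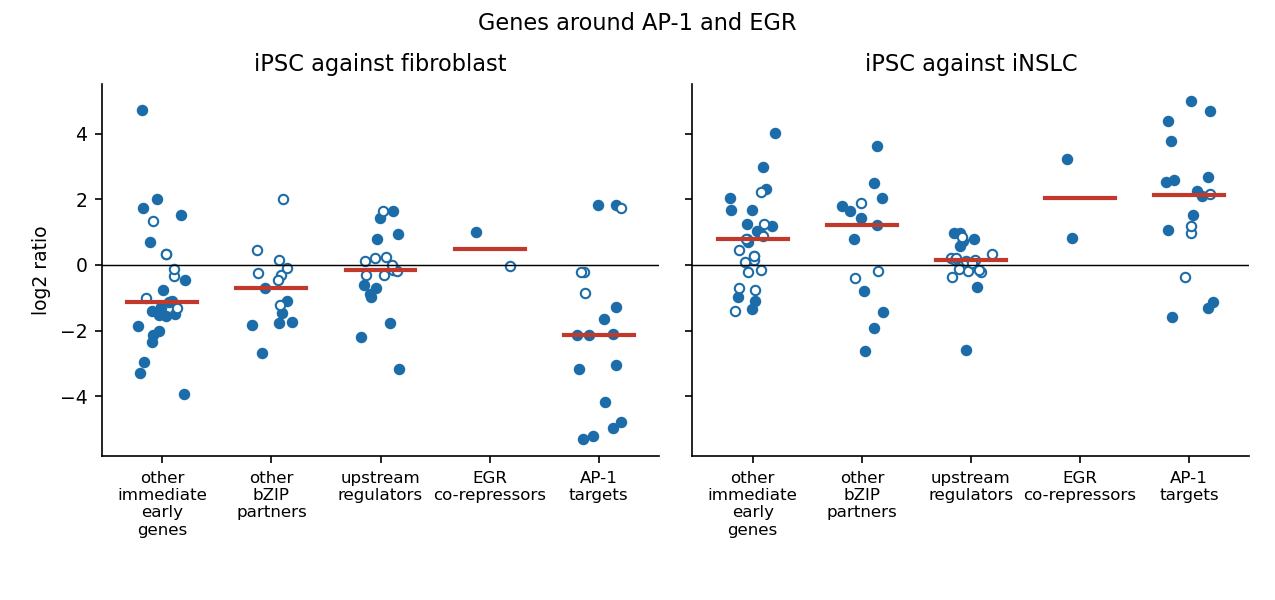
Log2 ratios of the genes in the 5 lists around AP-1 and EGR, for iPSCs against fibroblasts (left) and iPSCs against iNSLCs (right). Each point is a gene, filled where it passed an edgeR adjusted p of 0.05, and red lines are list medians, with genes under 3 counts set at 3 counts. The AP-1 target median lies at -2.12 on the left and 2.13 on the right.

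The genes with the profiles closest to a member over the 4 libraries were taken from the whole table, with closeness measured as the Euclidean distance of centred log2(CPM + 1) over 10132 genes with a symbol and at least 10 CPM in any library. Nearest to FOS were MTA3 (distance 0.0654), NPTX2 (0.0693) and CDC14B (0.131), MTA3 being at 106 and 109 CPM in the iPSC clones, 43.7 CPM in iNSLCs and 21.0 CPM in fibroblasts. Nearest to FOSL1 were CAV1 (0.248), a gene of membrane caveolae, the AP-1 target PLAUR (0.264), the urokinase receptor, and RBP4 (0.318). FOSL1 had few close neighbours, with 15 genes within a distance of 0.5, against 101 for FOS, 262 for JUN and 58 for EGR1. Nearest to JUN were CNOT6L, GABARAP and SMG1, and nearest to EGR1 were JADE2, EPHA2 and OTUD1. With 4 libraries many genes share a profile by its shape alone, and these are descriptions.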

How the data were processed

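The authors deposited whole-number counts per gene for 4 porcine libraries, not normalized, in a table of 25880 genes; 4 single-sample files hold the same values. Per the submitters' processing notes, the tools were Trim Galore 0.4.0, STAR 2.5.3a and featureCounts 1.5.2 on Sscrofa11.1. The sources used here give no strand setting. Symbols came from Ensembl identifiers (14857 genes) or from a single RefSeq gene of the same assembly overlapping by at least 80% of the shorter span (1664 genes), and 9359 genes had none. Both ways gave the same symbol in 94.5% of 12935 genes.

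Counts were scaled by TMM and tested with the edgeR 4.0.16 quasi-likelihood F test (R 4.3.3, limma 3.58.1), two-sided, on all 4 libraries in 3 groups. The 15739 genes kept by filterByExpr entered the Benjamini-Hochberg adjustment, and calls were made at 0.05. The clones gave the only residual degree of freedom (1), so the lone libraries were assumed to vary like the clones. In simulated data, 93% of 4-fold but 18% of 2-fold changes were recovered for iPSCs against fibroblasts, and 91% and 21% for iPSCs against iNSLCs. There 100 genes were changed at each fold, and all genes had the same spread. In the real data 57.1% of genes were called for iPSCs against fibroblasts and 28.1% for iPSCs against iNSLCs. The adjustment is less strict with so many calls, so the simulated rates do not give the recovery here. With 1 residual degree of freedom, a missed call at 2-fold still says little. Folds are ratios of TMM-scaled CPM with each library raised to at least 3 counts. The SE beside an edgeR log2 ratio is the size of that ratio divided by the square root of its F statistic. Intervals are exact conditional binomial 95% intervals. The alternatives tried were scaling by RLE or total counts, other filters, DESeq2 1.42.0, fits of 2 groups, naming by identifier only, single clones, raw-count shares and other size limits. Length without shared bases was added after seeing the data.

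The members and lists were chosen with earlier results of these data known. The text names all members, up to 6 genes per list by size of log2 ratio among those called (by size alone for iNSLCs against fibroblasts), all genes of lists of 5 or fewer, and 3 nearest profiles for each of FOS, FOSL1, JUN and EGR1. Genes making up counts of 5 or fewer, the profiles of MYC and NFE2L2, and SRF were named after their values were seen. Some genes that this rule selects are not reported here. Sequences and promoter motifs were not analysed here.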

Additional observations from a re-analysis of the deposited data

How the results depend on the processing

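No paired analysis was possible because iNSLCs and fibroblasts had 1 library each and the sample titles name no pairs with the iPSC clones. Of 104 tested ratios under alternatives, 96 kept their direction and their side of the threshold, 3 lost a call, 3 gained one and 2 reversed. The reversed values were those of EGR1 in iPSCs against fibroblasts, -0.036 without a filter on low counts and -0.020 in the fit of these groups alone, beside 0.032 in the reported fit. With a filter of 10 CPM in at least 1 library, 2 members were called higher in iPSCs than in fibroblasts, because FOSB and EGR2 were no longer tested. At 2-fold in place of 4-fold, 1 member was higher and 4 were lower in iNSLCs than in fibroblasts, beside 10.8% and 14.6% of all genes. With total counts, 7 of 9 iNSLC to fibroblast ratios moved beyond their counting intervals, and JUN was at 0.032, against -0.55 with TMM. With RLE none of the 9 did. Without 1 clone no test is left, and each ratio is that of the other clone alone, which says nothing of stability. JUN against iNSLCs was -0.55 without clone 1 and 0.21 without clone 2, and EGR1 against fibroblasts -0.045 without clone 1 and 0.11 without clone 2. Shares from raw counts gave JUND 26.7% and 28.5% in the clones, 19.5% in iNSLCs and 10.5% in fibroblasts. It thus no longer led in the clones or iNSLCs. The raw-count share of FOSL2 was 21.0% and 19.8% in the clones, 50.5% in iNSLCs and 77.9% in fibroblasts. That of FOS was 26.7% and 30.2% in the clones, so the distance between FOS and FOSL2 there depends on the scale. Leaving out shared bases put FOSL1 at 4.19% in fibroblasts. EGR2, FOSB and EGR3 had 33 counts or fewer in iNSLCs and fibroblasts, which limits their ratios.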
